A study of Rattus norvegicus with 16 samples.

Results

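Dexamethasone drops were compared with IgG drops in sutured rat corneas, using 8 of the 16 arrays of the series, 4 per treatment. All 4 dexamethasone and all 4 IgG arrays were taken by their labels, and the comparison was read over the 20826 probe sets that carry 1 gene symbol. These represent 14217 genes, each read from whichever of its probe sets was brightest on average across the 16 arrays. The animals of both groups were male Wistar rats aged 12 to 16 weeks, of one strain and with no genetic change named in the labels. Each had 2 sutures placed in the cornea 1.5 mm from the temporal limbus, a procedure that provokes inflammation and ingrowth of new vessels. Drops were given 4 times a day for 2 days, 8 drops in all. Corneas were taken at the end of these 2 days, when the study saw no new vessel sprouts yet. Dexamethasone, a synthetic glucocorticoid, was given at 1 mg/ml. The control drop was normal goat IgG, a non-specific antibody, at 20 mg/ml in the labels but with microgram units in the study's methods; the labels also call it an anti-IgG antibody. Naïve corneas, which had neither sutures nor drops, and corneas given anti-Vegf made up the other 8 arrays. Each array held the RNA of 1 cornea, chosen for RNA integrity from a larger set. The labels describe the tissue as the cornea without its scleral rim, whereas the methods describe the piece between the sutures and the temporal limbus. Dexamethasone arrays are given below in the order F25, F26, F27 and F30, and IgG arrays in the order F17, F19, F22 and F23.

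Glucocorticoids enter the cell and bind the glucocorticoid receptor, which leaves its heat shock protein partners, moves to the nucleus and binds DNA at glucocorticoid response elements. It raises transcription of one set of genes directly and holds back others, many of them driven by the inflammatory factors NF-kappaB and AP-1. In the eye, topical dexamethasone is used against inflammation, rejection of grafts and vessel growth. Under sutures the corneal epithelium is wounded, leukocytes enter the stroma from the limbal vessels, and vessel sprouts follow.

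The tissue carried the marker of its label: *Krt12*, the keratin particular to corneal epithelium, read 14.68 to 14.73 on the dexamethasone arrays and 14.67 to 14.73 on the IgG arrays, in log2 units. The quality controls on the arrays differed between the groups. The spiked poly-A transcripts, which are added to the RNA before labelling, averaged 5.17 ± 0.16 (SD, n = 4) with dexamethasone and 7.08 ± 0.27 with IgG, against 5.10 ± 0.11 in naïve and 6.88 ± 0.12 in anti-Vegf corneas. The Actb signal at the 5 prime end minus that at the 3 prime end was -1.17 ± 0.23 with dexamethasone and -0.71 ± 0.08 with IgG. For Gapdh it was -0.39 ± 0.07 and -0.08 ± 0.05. No dexamethasone array overlapped an IgG array in these 3 measures (exact two-sided permutation p = 0.029 for each, the smallest that 4 against 4 arrays can give). Handling that these controls reflect cannot be told apart from treatment. The labels name no batch, and p-values measure the spread between corneas treated alike. In such bulk tissue, fewer cells of a type and less RNA per cell cannot be told apart.

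The largest rises with dexamethasone were those of lens crystallins, led by *Cryba1* (5.32), with 10 of 17 lens genes higher. The other genes that differed included targets of the glucocorticoid receptor and genes of cell division and epithelial cornification. Single genes of acute phase, complement, retinoid storage and host defence differed as well. Of the 14217 genes, 1503 (10.6%) passed the test, 1054 higher (7.41%) and 449 lower (3.16%) with dexamethasone. List counts below are to be read beside these shares. The test was limma's moderated test with Benjamini-Hochberg adjusted p under 0.05, and "rose" and "fell" below refer to it. The median size of a called difference was 0.46 on the log2 scale, and the median over all genes was 0.02. At 2-fold or more, 55 genes rose and 46 fell. Leaving out single arrays lowered the counts most for F19 (611 higher, 279 lower), F26 (670 and 293), F27 (676 and 265), F22 (766 and 293) and F17 (730 and 325). With the Actb 5 prime to 3 prime difference as a covariate, 1247 rose and 380 fell, and 938 of these 1627 calls were also called, in the same direction, without it. Rises were 70.1% of the calls, but 53.4% when every probe set with 1 symbol was counted (6.15% of them higher, 5.37% lower) and 54.2% when each gene was read from its most variable probe set. Of 501 called genes with a second probe set, that probe set had the same sign in 330 (65.9%). Arrays of the groups did not overlap at all for 17.2% of genes, called or not, or 11.3% higher and 5.89% lower. An unadjusted p under 0.05 was reached by 25.4%.

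**Figure D1:**
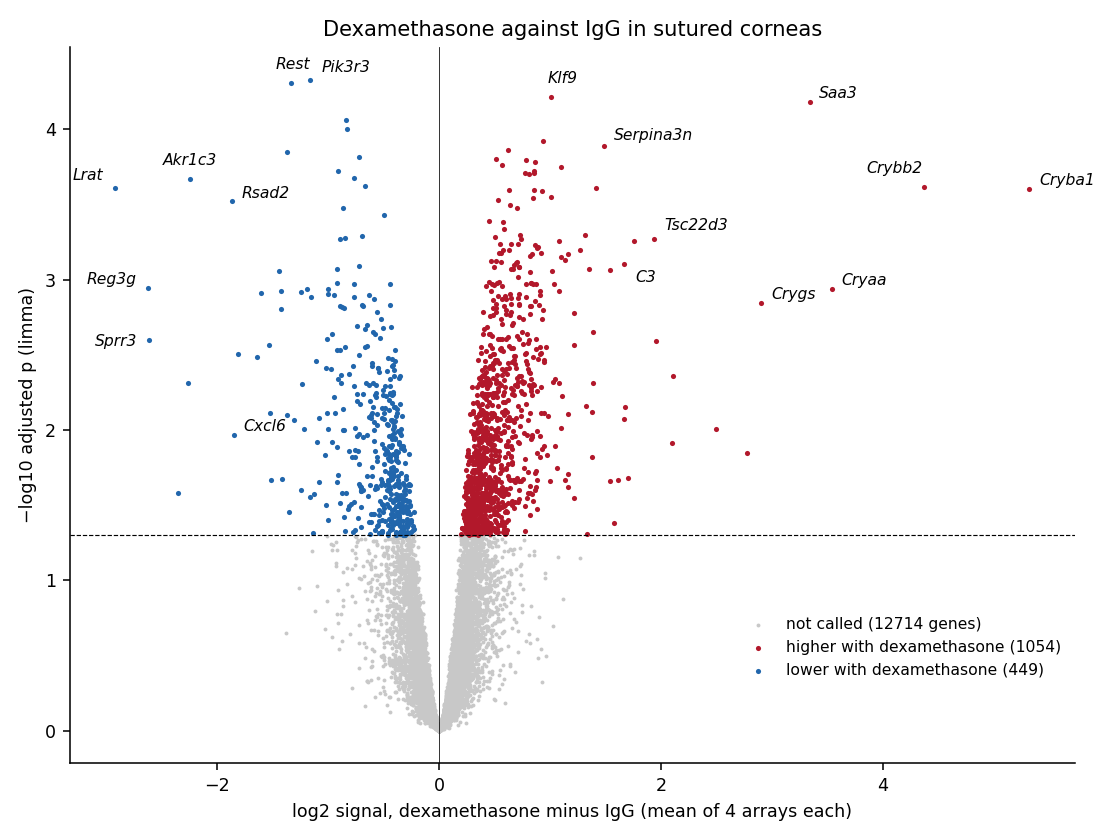
Difference between dexamethasone and IgG corneas (log2, horizontal) against the adjusted p on a −log10 scale (vertical) for 14217 genes, with called genes coloured and the leading genes named. The lens crystallin *Cryba1*, at 5.32, lies farthest to the right, and *Lrat*, at -2.92, farthest to the left.

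The receptor's own targets came first. *Tsc22d3* encodes GILZ, a leucine zipper protein that carries part of the anti-inflammatory action of glucocorticoids. It read 11.50, 10.86, 11.55 and 10.47 with dexamethasone and 8.83, 8.85, 8.94 and 10.01 with IgG. The groups did not overlap, although IgG array F23 lay above the other IgG arrays and among the naïve arrays, which read 9.85 to 10.15. *Tsc22d3* rose by 1.94 (3.84-fold, SE 0.27, adjusted p = 0.000538). *Fkbp5*, a chaperone partner of the receptor that is induced by its own ligand, read 10.46, 8.37, 9.71 and 8.41 with dexamethasone and 7.29, 7.46, 7.45 and 8.06 with IgG. Its dexamethasone arrays were widely spread, yet the lowest was still above the highest IgG array. *Fkbp5* rose 3.19-fold (1.67, SE 0.35, adjusted p = 0.007), and its naïve mean was 9.27. *Klf9*, a transcription factor induced early by glucocorticoids, was the most even: 10.62, 10.64, 10.86 and 10.46 against 9.70, 9.65, 9.60 and 9.57. *Klf9* rose by 1.01 (2.02-fold, SE 0.10, adjusted p = 6.09e-05) above both the IgG corneas and the naïve mean of 9.38, but gave 0.37 over the mean of its 3 probe sets (adjusted p = 0.0096). *Crispld2*, a secreted glucocorticoid-responsive protein, rose 3.38-fold.

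Of the 36 measured genes listed as the glucocorticoid receptor, its chaperones and direct targets, 11 rose and 2 fell, with a median difference of 0.19. The other risers, some named after their values were seen, were *Klf15* (0.95), *Mt2A* (0.83), *Cdkn1c* (0.82), *Sult1a1* (0.76), *Nfkbia* (0.67), *Sgk1* (0.61) and *Cdkn1a* (0.53). Over the mean of its probe sets *Klf15* gave 0.11 (adjusted p = 0.598). *Nfkbia* encodes the inhibitor that holds NF-kappaB in the cytoplasm, and its call ended without F26, F19 or F22 (adjusted p up to 0.0677). *Cdkn1c* and *Cdkn1a* encode inhibitors of cyclin-dependent kinases. The 2 that fell were *Hsd11b2*, the enzyme that inactivates natural glucocorticoids, by -0.42, and *Pck1*, of gluconeogenesis, by -0.26. The receptor gene *Nr3c1* did not pass the test (-0.02, adjusted p = 0.942), nor did the highest member *Anxa1* (0.01), another mediator of glucocorticoid action. The mean over the list was 8.90 to 9.07 on the dexamethasone arrays and 8.54 to 8.79 on the IgG arrays. Without F26, 10 rose and 1 fell.

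Acute phase genes rose in a small group that included the largest induction outside the lens genes. *Saa3*, a serum amyloid made in inflamed tissue, read 7.73, 9.27, 10.18 and 9.37 with dexamethasone and 6.05, 5.63, 5.68 and 5.82 with IgG. All 4 dexamethasone arrays lay far above the IgG arrays and above the naïve mean of 5.30. *Saa3* rose 10.1-fold (3.34, SE 0.34, adjusted p = 6.6e-05). *Orm1*, the orosomucoid of plasma, rose 2.91-fold and *Serpina3n*, a serine protease inhibitor, 2.81-fold. The dexamethasone arrays of *Orm1* read 5.03, 5.51, 6.09 and 6.64, and its IgG arrays 4.31, 4.16, 4.32 and 4.32. *Serpina3n* was even in the treated corneas, at 6.12, 6.20, 6.19 and 5.92 against 4.30, 4.38, 5.20 and 4.59. *A2m*, a broad protease inhibitor, rose by 0.75. *Cp*, the ferroxidase ceruloplasmin, rose by 0.79, but its arrays overlapped and the call ended without F26, F27, F17, F19 or F22 (adjusted p up to 0.0931) and with the Actb covariate (0.47, adjusted p = 0.157). The most variable *Cp* probe set rose by 1.66 (adjusted p = 0.00456). In all, 5 of 20 acute phase genes rose and none fell, at a median of 0.08.

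Glucocorticoid response element letters were searched in the promoters from 250 bases before to 50 bases after each gene's start, in RefSeq sequence of the assembly GRCr8. The pattern was GNACA and TGTNC with 3 bases between, on either strand. It stood in 0.359% of the 11700 promoters available, in 0.903% of those of genes that rose (8 of 886) and in 1.62% of those that fell (6 of 370). Among rises of at least 2-fold 2 of 45 held it (4.44%), and among such falls 0 of 38. The 2 were *Orm1* and *Serpina3n*, and they are shown because they join the pattern to an induction described above. They were picked after these shares were seen, and the pattern is in capitals. *Serpina3n* lies on the plus strand at chr6:129088294-129088346 and *Orm1* on the plus strand at chr5:81788359-81788411. Of the 30 promoters of the receptor's target list 2 held the pattern, but no called gene of that list held these letters in this window, which leaves out distal sites. A match describes the letters and was not tested as a binding site.
Serpina3n: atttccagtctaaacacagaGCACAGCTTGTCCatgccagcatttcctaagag
Orm1: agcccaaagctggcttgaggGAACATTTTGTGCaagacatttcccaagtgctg

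Among the complement genes that could be read, a few passed the test. *C3*, on which all complement pathways converge, read 8.78, 10.11, 9.67 and 9.11 with dexamethasone and 8.01, 7.09, 7.74 and 8.16 with IgG. The groups were apart, and both lay above the naïve mean of 5.03. *C3* rose 3.17-fold (1.67, SE 0.24, adjusted p = 0.00079). *Cfi*, the protease that inactivates C3b and C4b, went the other way: 7.27, 6.59, 6.90 and 7.11 with dexamethasone and 9.09, 8.87, 8.05 and 8.01 with IgG. *Cfi* fell by -1.54 (2.90-fold, SE 0.27, adjusted p = 0.00273) and stayed above its naïve mean of 4.97. *C1s*, a protease of the classical pathway, rose by 0.61 with arrays that overlapped, and its call ended without F26, F27, F17, F19 or F22 (adjusted p up to 0.0796). Of 17 components 2 rose and none fell (median 0.03), and of 16 regulators and receptors *Cfi* alone passed (median -0.05). The share of components called, 11.8%, was near the 10.6% over all genes. *C2*, which the study lists as higher with dexamethasone than with IgG, had no probe set with 1 symbol. It is not among the 17, so the cascade was read in part only.

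Among metal and iron genes, *Tfrc*, the transferrin receptor for iron uptake, rose by 1.32 and its second probe set by 1.38. *Steap3*, the endosomal ferrireductase, rose by 0.79 and the metallothionein *Mt2A*, which binds zinc and copper, by 0.83. The zinc exporter *Slc30a1* fell by -0.50, named after its value was seen. With *Cp*, 4 of 17 rose and 1 fell (median 0.11). *Mt1* did not pass (0.22, adjusted p = 0.52).

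**Figure D2:**
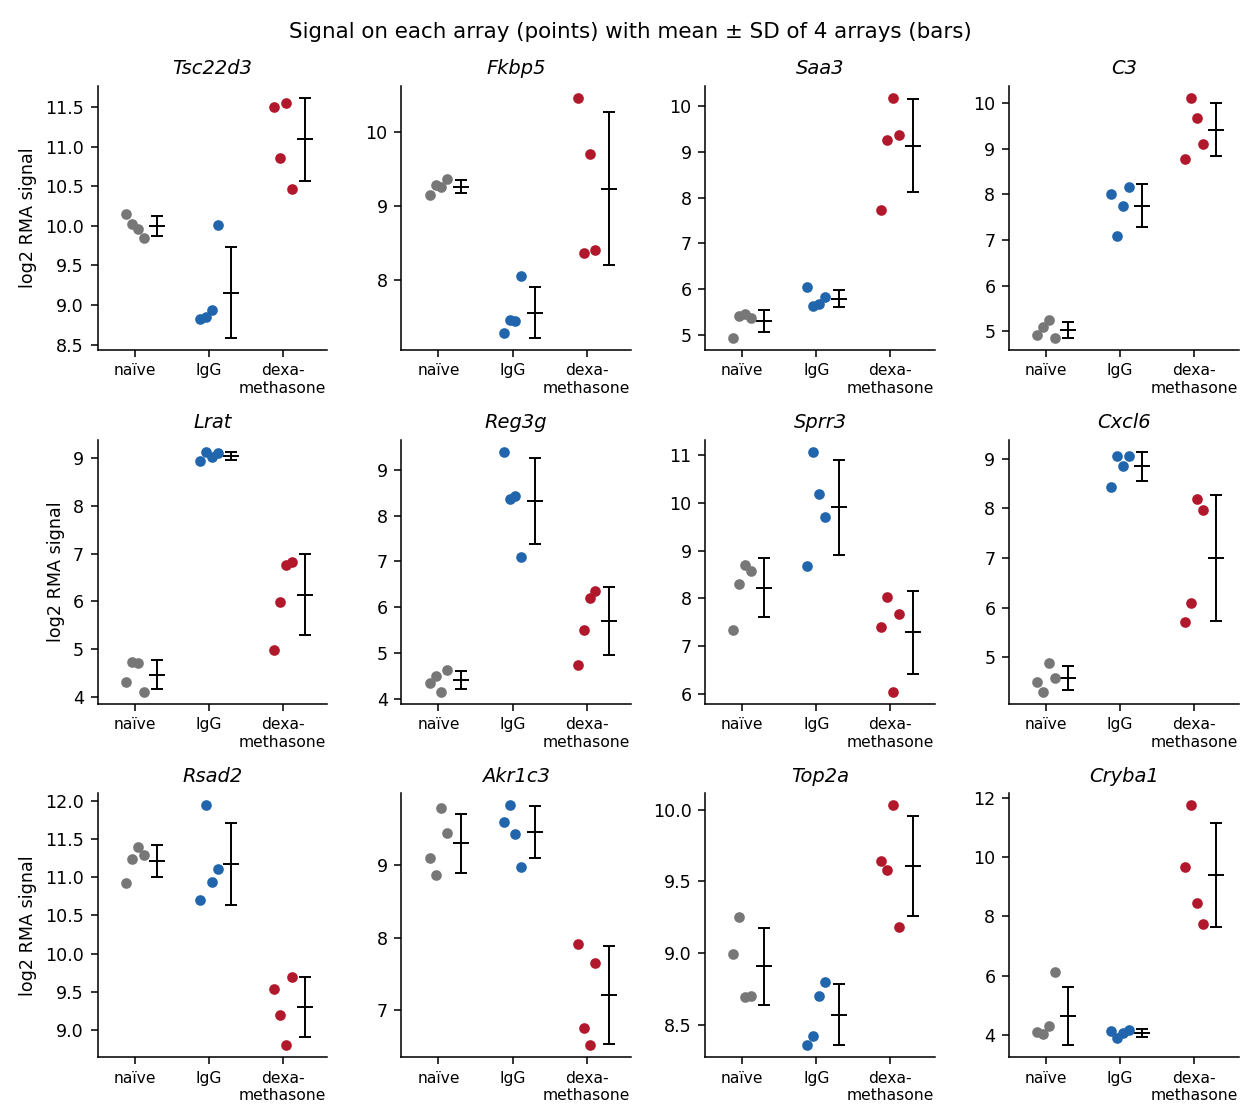
Log2 signal of leading genes on each of the 4 dexamethasone and 4 IgG arrays, with the naïve arrays for level; each point is 1 cornea and the bars are mean ± SD of 4 arrays. *Saa3*, *C3* and *Tsc22d3* are higher on every dexamethasone array than on any IgG array, and *Lrat*, *Reg3g* and *Sprr3* lower.

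Of the 30 genes of epithelial wounding and cornification, 10 fell and none rose, with a median difference of -0.56. The small proline-rich proteins, which are cross-linked into the cell envelope, include *Sprr3*, which read 7.41, 8.02, 6.05 and 7.68 with dexamethasone and 8.68, 11.07, 10.18 and 9.70 with IgG. No dexamethasone array reached the lowest IgG array. *Sprr3* fell by -2.61 (6.13-fold, SE 0.46, adjusted p = 0.00252), below the naïve mean of 8.22. *Stfa3*, a stefin that inhibits cysteine proteases, read 8.88, 10.69, 8.71 and 10.24 against 11.81, 12.29, 12.71 and 10.77. It fell by -2.26 (4.80-fold, SE 0.44, adjusted p = 0.00484), while its second probe set, at -0.17, did not pass (adjusted p = 0.213), and the mean of its probe sets gave -1.21. *Dmkn*, dermokine of the differentiating layers, fell by -1.42 (2.68-fold, SE 0.22, adjusted p = 0.00118). Its arrays read 9.10, 10.10, 8.97 and 9.01 against 10.56, 10.80, 10.83 and 10.68, and in all of them it was above the naïve mean of 7.70.

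The other 20 genes of the list did not pass, and 3 of the 30 had differences above 0. *Sbsn* (-1.19), the kallikrein protease *Klk8* (-1.37), the epithelial transcription factor *Ehf* (-0.87) and *Sprr1a* (-0.57), named after their values were seen, had arrays that did not overlap. *Sprr1b* fell by -1.42 and lost its call without F19 or F22 (adjusted p up to 0.071). *Cnfn*, cornifelin, fell by -1.17 with overlapping arrays, and its call ended without F25, F27, F17, F19 or F22 (adjusted p up to 0.0915). *Serpinb2*, the plasminogen activator inhibitor of keratinocytes and macrophages, fell by -0.78, also overlapping, and lost its call without F25, F27, F19, F22 or F23 (adjusted p up to 0.139). *Krt14*, the basal keratin and highest member, did not pass (-0.06, adjusted p = 0.795). The mean over the list was 8.16 to 8.78 with dexamethasone, 9.06 to 9.35 with IgG and 7.81 to 8.06 in naïve corneas. From 7 to 12 of the genes fell in the alternative analyses at the adjusted threshold. The count was 10 without F26 and 7 without F19 or F22. The *Sprr* and *Stfa* genes are close copies, and how far their probes share signal was not tested.

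**Figure D3:**
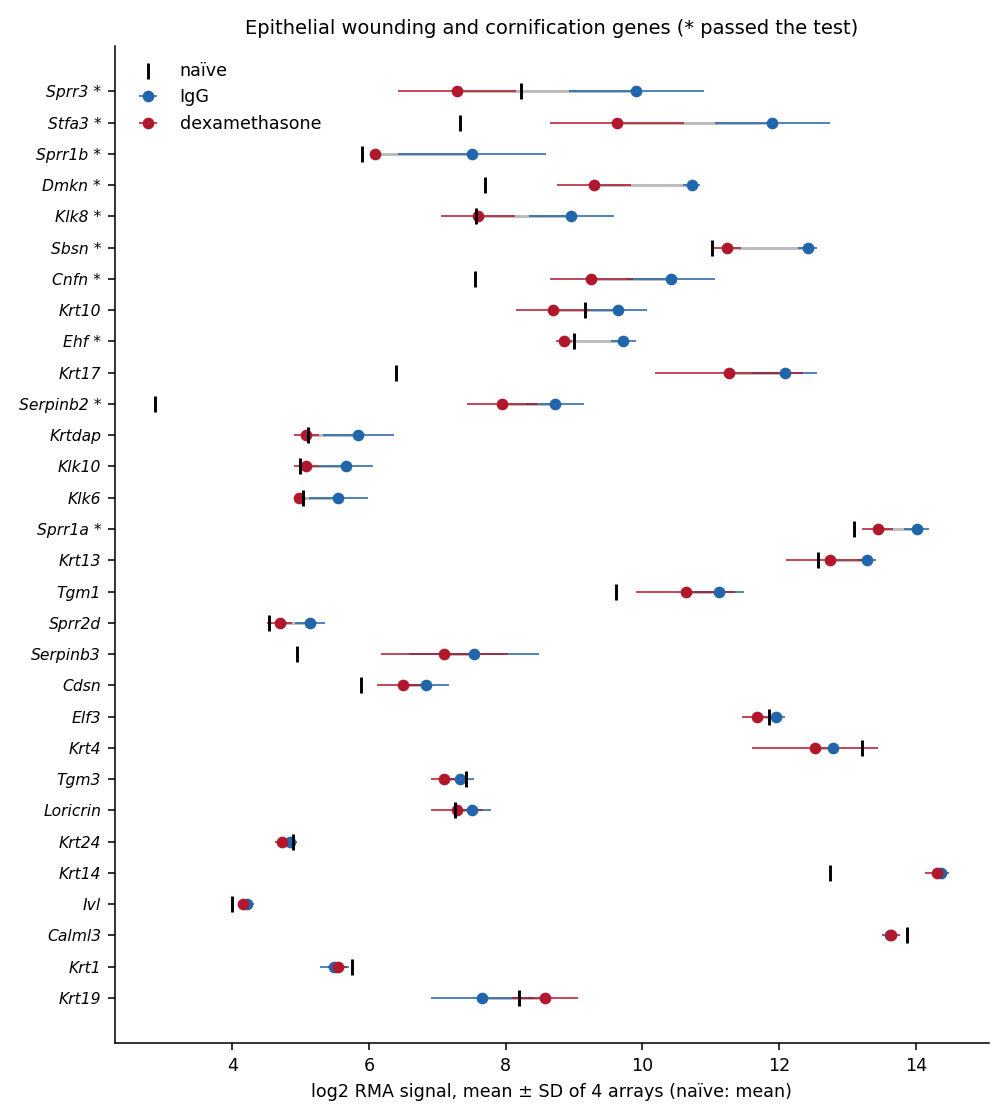
Mean log2 signal (horizontal, bars are SD of 4 arrays) of the 30 genes of epithelial wounding and cornification in dexamethasone (red) and IgG (blue) corneas, with the naïve mean as a tick and genes that fell starred. The red points lie left of the blue ones for the 10 starred genes, with a difference of -2.61 for *Sprr3*.

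The AP-1 letters TGANTCA stood in 9 of the 22 cornification promoters available (40.9%), against 5.43% of all promoters and 8.92% of those of genes that fell. At 2-fold or more they stood in 5 of 38 promoters of falls (13.2%) and 5 of 45 of rises (11.1%). Of the called cornification genes 4 of 7 had the letters, and of those not called 5 of 15. The 4 called genes with the letters are shown, in capitals, and were picked after these shares were seen. AP-1 is a known driver of keratinocyte envelope genes. The other called genes with a promoter, *Stfa3* (-2.26), *Sbsn* (-1.19) and *Cnfn* (-1.17), did not hold the letters. *Dmkn* lies at chr1:95141471-95141517 (plus strand), *Serpinb2* at chr13:24055812-24055858 (plus), *Sprr1a* at chr2:180752746-180752792 (minus) and *Sprr1b* at chr2:180706445-180706491 (minus), all GRCr8. The search was made on both strands, and the match was not tested as a binding site.
Dmkn: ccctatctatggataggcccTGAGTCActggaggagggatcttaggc
Serpinb2: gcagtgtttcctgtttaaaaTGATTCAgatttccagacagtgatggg
Sprr1a: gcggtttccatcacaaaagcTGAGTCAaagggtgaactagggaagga
Sprr1b: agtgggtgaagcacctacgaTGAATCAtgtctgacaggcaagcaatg

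Single genes of retinoid storage and host defence were among the strongest falls, while their lists held both rises and falls. *Lrat*, which esterifies retinol for storage, read 4.99, 5.99, 6.77 and 6.82 with dexamethasone and 8.95, 9.13, 9.04 and 9.12 with IgG. The IgG arrays were nearly equal, the dexamethasone arrays spread, and the naïve mean was 4.46. *Lrat* fell by -2.92 (7.56-fold, SE 0.37, adjusted p = 0.000244). *Rbp2*, a cellular carrier of retinol, fell by -0.87, and *Aldh1a3*, which makes retinoic acid, rose by 0.38. Of 22 retinoid genes 2 rose and 3 fell (median -0.14). The calls of *Rarb* (0.74) and *Rxra* (-0.46), retinoid receptors, ended in some analyses that left 1 array out, for *Rarb* without F26 or F27 (adjusted p up to 0.0582) and for *Rxra* without any array but F30 (up to 0.119).

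*Reg3g*, an antibacterial lectin of epithelia, read 4.74, 5.50, 6.21 and 6.35 with dexamethasone and 9.40, 8.36, 8.43 and 7.09 with IgG. Every treated cornea was below every control cornea, with a naïve mean of 4.41. *Reg3g* fell by -2.62 (6.15-fold, SE 0.41, adjusted p = 0.00114). *Wfdc2*, of the whey acidic protein family, fell by -0.89, and *Defb1*, a beta-defensin, by -0.72, a call lost without F27, F30, F19 or F23 (adjusted p up to 0.0741). *Wfdc18* rose by 1.16, a call lost without F26 or F19 (up to 0.0635), and *Lyz2*, lysozyme, by 0.72, lost without F26, F17 or F19 (up to 0.0904). *Slpi*, the highest member, did not pass (0.39, adjusted p = 0.379), so that 2 of 19 antimicrobial genes rose and 3 fell.

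*Akr1c3*, a reductase of prostaglandins and steroids, read 7.91, 6.76, 6.52 and 7.65 with dexamethasone and 9.59, 9.82, 9.43 and 8.97 with IgG, against a naïve mean of 9.30. All dexamethasone arrays lay below the IgG arrays and the naïve mean, and *Akr1c3* fell by -2.24 (4.73-fold, SE 0.28, adjusted p = 0.000213). *Ptgis*, prostacyclin synthase, rose by 0.77. Of 23 prostaglandin and leukotriene genes 2 rose and 3 fell. The falls of *Alox12* (-0.81) and *Ptger2* (-0.45) had overlapping arrays, and each ended when 1 of 5 arrays was left out, F26, F27 and F22 for both, F17 and F19 for *Alox12* (adjusted p up to 0.103), and F25 and F23 for *Ptger2* (up to 0.0829).

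Inflammatory mediators fell at a few genes, and most did not pass. The chemokine *Cxcl6*, called *Cxcl5* in the study, draws neutrophils. It read 5.71, 6.10, 8.19 and 7.97 with dexamethasone and 8.42, 9.05, 8.86 and 9.05 with IgG. Even the highest treated array stayed below the IgG arrays, and the naïve mean was 4.57. *Cxcl6* fell by -1.85 (3.61-fold, SE 0.42, adjusted p = 0.0108), a call that ended in a fit of these 8 arrays alone (adjusted p = 0.0558). *Ccl3*, which draws macrophages, rose by 0.62 with overlapping arrays, and *Ccl2*, the monocyte chemokine, did not pass (-0.42, adjusted p = 0.405). Of 31 chemokine ligands 1 rose and 1 fell (median -0.06), and of 16 chemokine receptors 2 fell, *Ccr6* by -0.52 and *Cxcr4* by -0.72. The *Cxcr4* call ended without F25, F27, F19, F22 or F23 (adjusted p up to 0.0791).

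*Socs3*, the feedback inhibitor of interleukin-6 signalling through STAT3, read 7.01, 8.35, 7.60 and 8.29 with dexamethasone and 8.90, 8.98, 8.91 and 9.42 with IgG. The groups did not overlap, and *Socs3* fell by -1.24 (2.36-fold, SE 0.24, adjusted p = 0.00497). *Socs2*, which restrains growth hormone signalling, rose by 0.51, and no other of these 20 genes passed. None of 20 genes of the interleukin-1 family passed limma's test (median 0.03), though 7 did at an unadjusted p under 0.05, and the highest, *Il18*, differed by -0.26 (adjusted p = 0.149). Among NF-kappaB and AP-1 factors, *Nfkb1*, a subunit of NF-kappaB, fell by -0.36 and *Fos* did not pass (-0.19, adjusted p = 0.88). *Maff* fell by -0.86, lost without any array but F30 (adjusted p up to 0.12), and *Nfkbia* rose, as given above. Thus 1 of 23 rose and 2 fell (13.0% called, against 10.6% of all genes). In the tumor necrosis factor list 1 of 27 rose, *Tnfaip3*, an inhibitor of NF-kappaB signalling (0.51), and that call ended without F26, F27, F17, F19 or F22 (up to 0.11).

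NF-kappaB letters, GGANNTTCC on either strand, stood in 4.39% of all promoters and 4.59% of those of genes that fell. At 2-fold or more they stood in 4 of 38 promoters of falls (10.5%) and 0 of 45 of rises. *Cxcl6* held the letters at chr14:17596476-17596524 on the minus strand (RefSeq, GRCr8). It is shown as the chemokine that fell, with the letters in capitals.
Cxcl6: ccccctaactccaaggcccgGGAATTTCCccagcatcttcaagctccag

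Interferon response genes were lower in a minority. *Rsad2*, viperin, an antiviral enzyme, read 9.53, 9.20, 8.80 and 9.69 with dexamethasone and 10.70, 11.94, 10.94 and 11.11 with IgG, against a naïve mean of 11.21. Treated corneas lay below both the control and the naïve corneas. *Rsad2* fell by -1.87 (3.65-fold, SE 0.24, adjusted p = 0.000301). Its genomic neighbour *Cmpk2*, a mitochondrial nucleotide kinase, fell by -1.24, and *Irf1*, a transcription factor of the response, by -0.63. *Irgm* (-0.42), lost without any array but F22 (adjusted p up to 0.121), and *Ifih1* (-0.28), a sensor of viral RNA named after its value was seen, were the other falls. In the list 5 of 35 fell and none rose, at a median of -0.28 that went to -0.09 without F19. Only 3 fell without F26, F27, F30, F17, F19 or F23, and 7 fell when the most variable probe set was read. The highest member, *Ifitm3*, did not pass (-0.05, adjusted p = 0.839).

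Antigen presentation showed no shared shift. *B2m*, the class I light chain, did not pass (-0.07), nor *Cd74*, the class II chaperone (-0.47, adjusted p = 0.157). *RT1-T24-4* fell by -2.35 with wide and overlapping arrays, and lost its call without F25, F26, F27, F17 or F19 (adjusted p up to 0.0853). The class II gene *RT1-Db1* fell by -0.70 and was lost without any array but F30 and F17 (up to 0.127). The protease *Ctss*, which trims the class II chaperone, rose by 0.49 and was lost without F25, F26 or F27 (up to 0.0631, with a difference of 0.30 without F17). Hence 1 of 20 class I and 1 of 11 class II genes fell.

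Cell division genes rose as a body. *Top2a*, the topoisomerase that untangles DNA in dividing cells, read 9.64, 9.58, 10.03 and 9.18 with dexamethasone and 8.36, 8.42, 8.70 and 8.80 with IgG. Every dexamethasone array was above every IgG array and above the naïve mean of 8.91. *Top2a* rose 2.05-fold (1.04, SE 0.16, adjusted p = 0.00106), and its second probe set by 0.89. *Nusap1*, a spindle protein, rose by 0.91, and *Mki67*, the proliferation marker, by 1.00, although that call was lost without F26, F27 or F17 (adjusted p up to 0.0732). Of 33 genes 28 rose (median 0.65), among them, named after their values were seen, the mitotic kinases *Aurka* (0.87), *Bub1b* (0.85) and *Cdk1* (0.72). Genes of DNA replication, such as *Mcm6* (0.71), *Rrm1* (0.69) and *Pcna* (0.49), were in the same group. The single fall was the G1 cyclin *Ccnd2* (-0.89), and *Ccnd1*, the highest member, did not pass (0.12, adjusted p = 0.641). The list's mean was 9.08 to 9.39 with dexamethasone, 8.42 to 8.78 with IgG and 8.34 to 8.58 in naïve corneas. Leaving out 1 array gave 21 to 28 rises, with 25 without F26, and a limit of 1.5-fold left 18. With the Actb 5 prime to 3 prime difference as a covariate 23 rose.

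**Figure D4:**
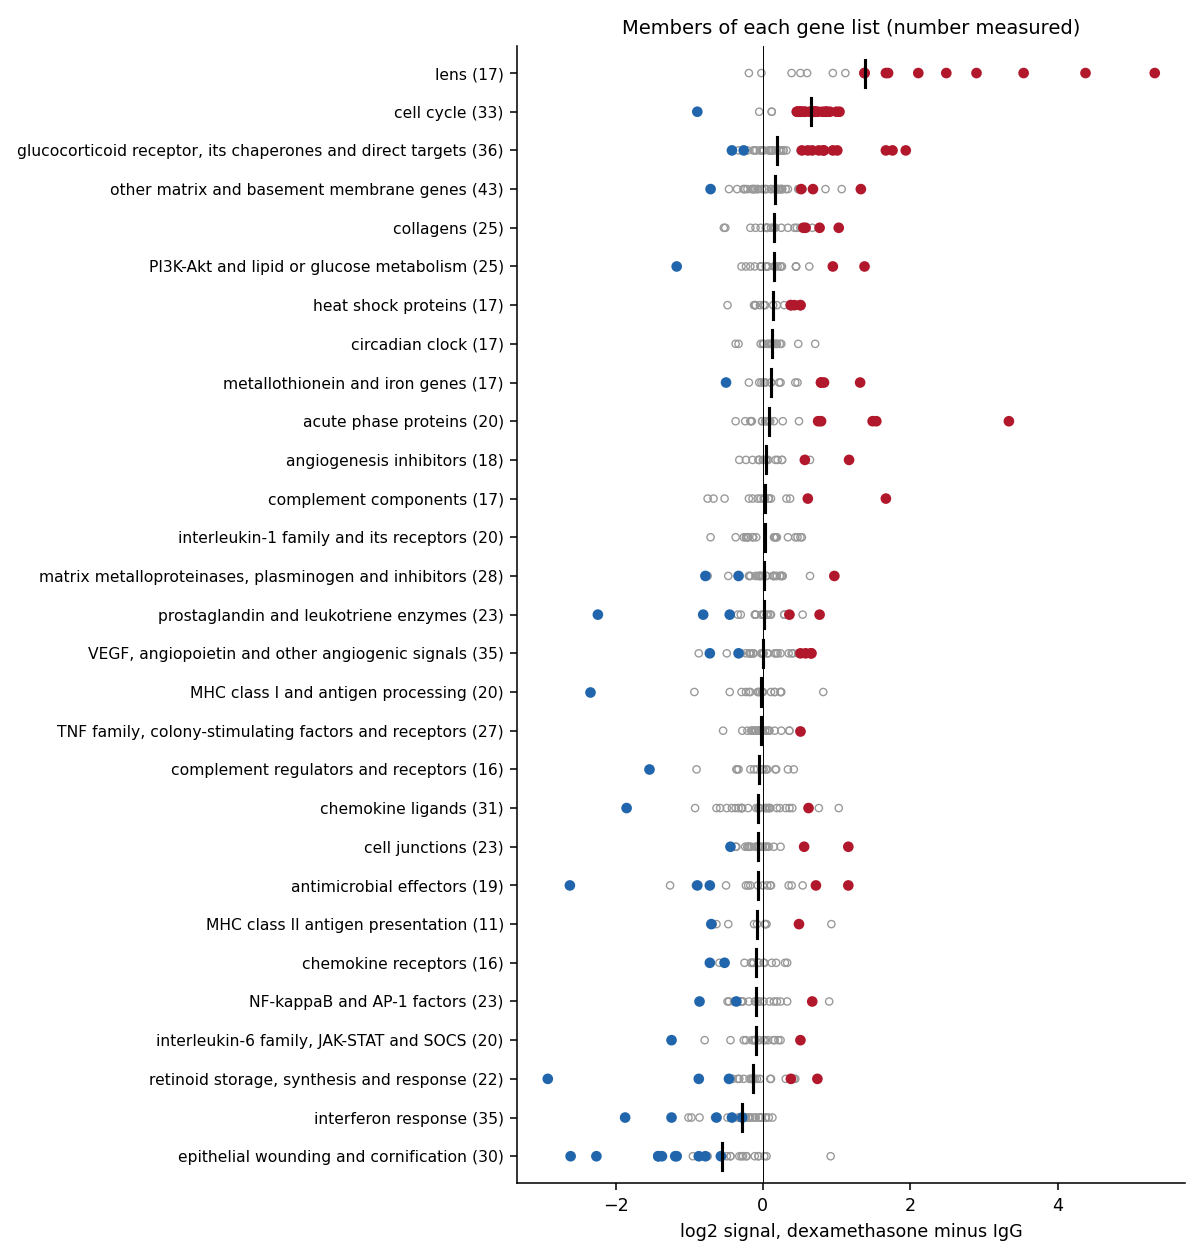
Difference between dexamethasone and IgG corneas (log2, horizontal) of every measured gene in each list, with genes that rose in red, genes that fell in blue, the others as open circles and each list's median as a bar. Cell cycle genes, at 0.65, and lens genes, at 1.38, have the highest medians, and cornification genes, at -0.56, the lowest.

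Of 25 collagens 4 rose and none fell, at a median of 0.15 that went to -0.03 with the Actb 5 prime to 3 prime difference as a covariate. *Col4a1*, a chain of basement membrane collagen, rose by 1.03 (SE 0.20, adjusted p = 0.00478), while its second probe set, at 0.90, did not pass (adjusted p = 0.0539). *Col7a1*, the anchoring fibril collagen, rose by 0.58 (adjusted p = 0.00041). *Col4a2* (0.55) and *Col4a5* (0.77) were the other rises. *Col4a2* lost its call without F26, F27, F30, F17 or F23 (adjusted p up to 0.0833) and *Col4a5* without any array but F30 and F19 (up to 0.125, with a difference of 0.51 without F17). *Col1a2*, the most abundant member, did not pass (0.06), and *Col6a2*, which the study lists as higher, gave 0.58 (adjusted p = 0.132). *Col6a2* did pass over the mean of its probe sets (0.68, adjusted p = 0.00997) and with the Actb covariate (0.88, adjusted p = 0.0304). Of 43 other matrix genes 3 rose and 1 fell (9.3% called, against 10.6% of all genes), at a median of 0.17, or 0.07 with that covariate. Each of these calls ended when some single array was left out. They were the cross-linking enzyme *Lox* (0.68; F26, F27, F17 or F19; adjusted p up to 0.0721), *Lama5* (0.52; all but F26 and F17; up to 0.0875), *Vcan* (1.33; all but F25; up to 0.15) and *Aspn* (-0.71; F26, F27, F17 or F22; up to 0.0828). *Adamts5*, which cleaves aggrecan and versican, rose by 0.97 (adjusted p = 0.0511 without F26, 0.0515 in a fit of these 8 arrays alone and 0.0785 with the Actb covariate). It was the only rise among 28 proteases and inhibitors, of which 2 fell (10.7% called, against 10.6% of all genes).

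Among angiogenic signals some single genes rose and others fell. *Angpt2*, the antagonist of Tie2 in sprouting vessels, fell by -0.72 (SE 0.13, adjusted p = 0.00314), with 3.96 to 4.24 on the dexamethasone and 4.61 to 5.10 on the IgG arrays. These are low signals, below the array medians of 6.548 to 6.614. *Pdgfa*, a growth factor for mesenchymal cells, rose by 0.65 and *Fgfr1*, a fibroblast growth factor receptor, by 0.66, both without overlap, but the most variable *Fgfr1* probe set gave 0.33 (adjusted p = 0.296). *Vegfa* did not pass (0.24, adjusted p = 0.544). *Vegfc*, which drives lymphatic growth, rose by 0.58, a call lost without F25, F26, F27, F17 or F19 (up to 0.0784). Of 35 such genes 4 rose and 2 fell (17.1% called, against 10.6% of all genes), at a median of 0.00. Of 18 inhibitors of angiogenesis, *Cd36*, a thrombospondin receptor, rose by 1.17 and *Thbs2* by 0.57, the latter lost without F26, F27, F17 or F23 (up to 0.0973). The share of inhibitors called was 11.1%, against 10.6% of all genes.

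General leukocyte and neutrophil markers did not pass the test, while a few macrophage and T cell genes did. None of 14 pan-leukocyte or 11 neutrophil markers passed limma's test, while 2 of each did at an unadjusted p under 0.05. The pan-leukocyte mean was 7.61 to 8.34 with dexamethasone and 7.82 to 8.25 with IgG, both above the 6.40 to 6.59 of naïve corneas. Neutrophil means were 7.47 to 8.64 and 8.12 to 8.29, and without F26 2 neutrophil markers fell. Of 16 monocyte and macrophage genes, *Cd68*, a lysosomal glycoprotein, fell by -0.86, *Ms4a7* by -1.22, and *Lyz2* rose, as given above. *Cd68* read 9.36 to 9.87 with dexamethasone and 10.42 to 10.50 with IgG, with no overlap. T cell genes *Cd3d* (-0.43), *Cd5* (-0.39) and *Cd3e* (-0.35) fell at low signals, 3 of 19. The *Cd5* call ended without F26, F27 or F23 (adjusted p up to 0.0721) and the *Cd3e* call without any array but F30 and F23 (up to 0.132). No gene of the vessel, lymphatic, pericyte, mast cell, conjunctival, keratocyte or corneal epithelial lists passed limma's test. At an unadjusted p under 0.05 these lists had 4, 2, 2, 2, 3, 1 and 2 genes, in that order.

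Lens crystallins were higher on all 4 dexamethasone arrays, and most on F26. *Cryba1*, a structural protein of lens fibres, read 9.68, 11.74, 8.44 and 7.73 with dexamethasone and 4.13, 3.90, 4.09 and 4.19 with IgG, against a naïve mean of 4.65. Its arrays did not overlap, and it rose by 5.32 (SE 0.67, adjusted p = 0.000247). Without F26 *Cryba1* still rose, by 4.54. Of the 17 lens genes 10 rose and none fell (median 1.38), and 12 rose without F26 (median 0.96). *Crybb2* (4.38), *Cryaa* (3.54) and *Crygs* (2.90) followed. The list's mean was 6.94, 8.66, 6.41 and 6.53 on the dexamethasone arrays, 5.29 to 5.40 on IgG arrays and 5.21 to 5.76 on naïve arrays. The part of lens RNA in the other results was not tested. Leaving out F26, its highest array, cannot decide it, because 12 lens genes still rose on the remaining arrays. The counts without F26 given with the larger lists thus rest on dexamethasone arrays that still carried lens signal. Corneal endothelium, which also faces the anterior chamber, had 1 of 8 markers higher, *Cdh2* (1.16), at a median of 0.42. The *Cdh2* call was lost without F27 (adjusted p = 0.0619) and with the Actb covariate (1.04, adjusted p = 0.0778). Over the mean of its probe sets *Cdh2* gave 0.45 (adjusted p = 0.112). Log2 signals have no zero, so absence of a marker cannot be read from them.

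**Figure D5:**
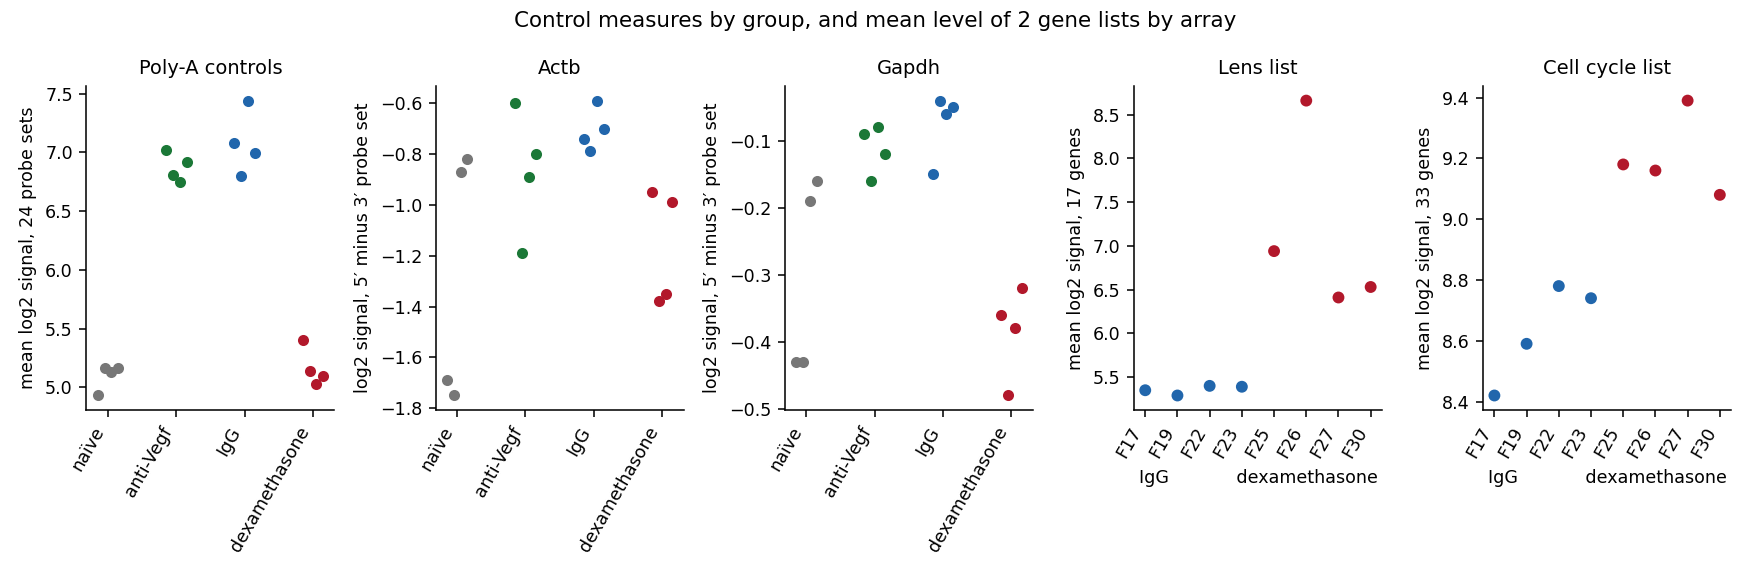
Control measures on the arrays of all 4 groups, and mean level of the lens and cell cycle lists on each IgG and dexamethasone array, in log2 units, with 1 point per array. The poly-A controls place dexamethasone arrays with naïve arrays and IgG arrays with anti-Vegf arrays, and the lens mean is highest, at 8.66, on F26.

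Several other genes stood among the leading changes. *Pik3r3*, a regulatory subunit of phosphoinositide 3-kinase, read 7.40, 7.22, 7.49 and 7.42 with dexamethasone and 8.71, 8.65, 8.55 and 8.27 with IgG. It had the smallest adjusted p of all genes (4.68e-05) and fell by -1.17. *Scd*, which desaturates fatty acids, rose by 1.38 and *Gpx3*, the secreted glutathione peroxidase, by 0.95. Thus 2 of 25 genes of PI3K-Akt signalling and metabolism rose and 1 fell (12.0% called, against 10.6% of all genes). *Rest*, a repressor of neuronal genes, fell by -1.34 (adjusted p = 4.87e-05), or by -0.83 over the mean of its probe sets, and *Zbtb41*, a zinc finger protein, by -1.37. *Ly6c* rose by 2.78 (adjusted p = 0.0142), with a naïve mean of 10.37, and *Lims2*, a focal adhesion adaptor, by 1.96. *Sdcbp2* (-1.65), *C18h5orf46* (-1.82) and *Dach1* (-1.61) fell without overlap. Among genes named by the study, *Plce1* (1.27), *Zfp367* (1.08), *Tbc1d31* (0.96), *Flrt3* (0.90), *Atp1b1* (0.88), *Pou3f3* (0.84) and *Ikbip* (0.81) rose and *LOC100910973* (-1.44) fell. The *Atp1b1* call ended with the Actb covariate (0.57, adjusted p = 0.0542), and *Ikbip* gave 0.41 over the mean of its probe sets. *RT1-Da* (-0.68), *Vps37b* (-0.29), *Rab1a* (-0.14) and *Ints6* (0.19) did not pass. The most variable probe set of *Vps37b* rose by 1.16 (adjusted p = 0.000537). That of *Ints6* fell by -1.37 (adjusted p = 0.000117), both in the direction that the study lists. For *Andpro* (0.00) and *Gja1* (0.08) a second probe set gave 1.26 and -1.35, so that the result depends on the probe set read.

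Heat shock proteins rose in 5 of 17 genes (median 0.14), led by the mitochondrial chaperones *Hspa9* (0.51) and *Hspd1* (0.43), and *Hsph1* (0.51). Over the mean of their probe sets *Hspa9* gave 0.21 (adjusted p = 0.126) and *Hsph1* 0.34 (0.0677), and with the most variable probe set 0.28 (0.681) and 0.16 (0.506). *Hspa5*, of the endoplasmic reticulum, rose by 0.38 (adjusted p = 0.0537 without F17). None of 17 clock genes passed limma's test (median 0.12), and 1 did at an unadjusted p under 0.05. Of 23 cell junction genes 2 rose and 1 fell (13.0% called, against 10.6% of all genes), and up to 6 fell in the alternatives. *Dsg2*, a desmoglein, rose by 0.56. *Dsg1* fell by -0.44, lost without F26, F17 or F19 (adjusted p up to 0.0698), though its most variable probe set fell by -0.97. *Tjp1* did not pass (-0.24, adjusted p = 0.226), but did over the mean of its probe sets (-0.71, adjusted p = 0.00333), with the most variable (-1.19, adjusted p = 0.00145) and with the Actb covariate (-0.44, adjusted p = 0.0146).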

How the data were processed

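RNA from 16 rat corneas, 1 per array and 4 per group, was hybridised to Affymetrix rat expression arrays. The authors converted the scans with Affymetrix Expression Console, using RMA background correction and normalization, and deposited log2 signals per probe set. Array medians were 6.548 to 6.614. Of 31099 probe sets, 57 are controls; the other 31042 were tested. The platform annotation gave 1 symbol to 20826 of them, several to 436 and none to 9780, and gene IDs of 20758 were found in RefSeq (GRCr8). A mean per group was fitted to all 16 arrays with limma 3.58.1 in R 4.3.3 (12 residual degrees of freedom, empirical Bayes moderation), and Benjamini-Hochberg adjustment covered all 31042 probe sets. The count of arrays limits the precision. The script was tested on simulated data. Values were summarised in Python 3.11.15 with pandas 2.3.3 and scipy 1.17.1.

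Named genes were the 10 largest rises and falls whose arrays did not overlap, up to 4 called genes of each list with the largest differences plus its highest signal, and genes named by the study. The comparison, members and lists were chosen with earlier results of these data known. Study genes without a single-symbol probe set (*C2*, *Stfa2l3*, *RT1-A2* and *LOC257642* among them) were not analysed here. Alternatives changed the arrays fitted, moderation, scaling, filter, probe set rule, threshold and each array in turn.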

Additional observations from a re-analysis of the deposited data

Results flagged for a closer look

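In 23 of the 322 groups of 4 arrays examined, the highest or lowest array lay far from the others by Dixon's ratio, and chance alone gives about 1 in 20. Dexamethasone arrays set apart were F25 for *Aldh1a1* (12.51) and *Dach1* (3.56), F26 for *Dmkn* (10.10), *Irgm* (9.66) and *Lyz2* (12.77), F27 for *Myh1* (11.28) and *Serpinb2* (7.18), and F30 for *Ctss* (9.10), *Pou3f3* (9.33) and *Rxra* (7.49). IgG arrays set apart were F17 for *Cdh2* (6.16), *Grifin* (5.27), *Krt14* (14.50), *Lcn2* (13.54), *Pdgfa* (8.59) and *Rarb* (6.30), F19 for *Orm1* (4.16) and *Rest* (7.21), F22 for *Hsph1* (9.21), and F23 for *Hif1a* (11.89), *Myh1* (9.92), *Socs3* (9.42) and *Tsc22d3* (10.01). Some of these values lay toward the other group, among them *Tsc22d3* on F23, *Dmkn* and *Irgm* on F26 and *Rxra* on F30.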

How the results depend on the processing

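No paired analysis was possible because the arrays of the groups compared share no number. Reading each gene from its most variable probe set gave 985 genes higher and 834 lower, and every probe set counted singly gave 1281 and 1118. A limit of 1.5-fold left 300 higher and 156 lower, and an unadjusted p under 0.05 gave 2275 and 1331. The other settings, among them a fit of these 8 arrays alone, array weights, scalings and filters, gave 733 to 1285 genes higher and 334 to 652 lower. The Actb 5 prime to 3 prime covariate gave 1247 and 380, sharing 938 calls with the 1503, and ended 33 of the calls of named genes, all but that of *Atp1b1* also lost without some array. The fit of these 8 arrays alone ended 28. Leaving out 1 array gave 611 to 999 genes higher and 265 to 495 lower. Signs turned for *Gja1* (-0.41 over the mean of its probe sets and -1.35 with the most variable), *Ints6* (-1.37) and *Vps37b* (1.16), the last pair with the most variable probe set. All of these turned values passed the adjusted threshold. Of 161 named genes 115 were called, 66 of them in every alternative except a fold limit, and 40 were lost when some single array was left out. The cause of these changes was not tested. Probe sets with several symbols, and close gene copies that may share probes, limit single-gene readings.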

Other observations

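Markers of tissues that border the cornea, other than lens, gave few calls. Of 13 striated muscle genes *Myh1*, a fast myosin, rose by 0.57, from 9.92 to 10.52 on the IgG arrays to 10.72 to 11.28 on the dexamethasone arrays, and its call ended without F26, F27, F17, F19 or F23 (adjusted p up to 0.128). Of 12 nerve and Schwann cell genes the myelin gene *Pmp22* rose by 0.45 and the neurofilament gene *Nefh* fell by -0.51. *Pmp22* was lost without any array but F22 (up to 0.134) and *Nefh* without each array in turn (up to 0.116). *Aqp5*, a water channel of lacrimal gland that corneal epithelium also carries, rose by 0.35 (adjusted p = 0.00663), the only call among 9 gland genes. The B cell gene *Fcrla* rose by 0.85 with overlapping arrays, 1 of 6, and was lost without F25, F26, F17, F19 or F22 (up to 0.0898). None of 7 pigment cell, 5 red cell or 12 liver plasma protein genes passed limma's test, with 3, 0 and 0 at an unadjusted p under 0.05.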
